A study of Mus musculus with 2040 samples.

Results

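Levels of 9 genes of fibroblast growth factor (FGF) signalling were followed through single sorted mouse brain cells: the receptors Fgfr1, Fgfr2 and Fgfr3, the ligands Fgf1 and Fgf2, and the feedback genes Spry1, Spry2, Spry4 and Etv5. They were taken by name from the 32245 gene columns of the deposited table, and all 9 were present. The study asked which cells enhancer-AAVs reach. An enhancer-AAV is an adeno-associated virus whose fluorescent reporter, here SYFP2, is driven by a chosen enhancer or promoter. Each of 47 C57Bl/6J mice received 1 of 30 vectors, and SYFP2-expressing cells were sorted singly and sequenced with the full-length SMARTerv4 chemistry, giving 2040 cells.

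Cells from VISp (primary visual cortex) came from 41 mice and 27 vectors. Those from MB/HB (midbrain and hindbrain) came from 4 mice, of which 2 received eHGT_381h and 2 MGT_E160m. Those from CBX (cerebellar cortex) came from 2 mice given eHGT_375m. The astrocyte-like cells of VISp that were compared came from 19 mice given 3xCore2(390m), GFAP_promoter, ProB12, eHGT_373m, eHGT_374m, eHGT_376h, eHGT_380h, eHGT_385m, eHGT_386m, eHGT_387m, eHGT_390h or eHGT_390m. The oligodendrocyte-like cells of VISp came from 22 mice given MBP_promoter, eHGT_361h, eHGT_391h, eHGT_395h, eHGT_396h, eHGT_396m, eHGT_397m, eHGT_400h, eHGT_400m, eHGT_401h, eHGT_403h, eHGT_405m, eHGT_409h, eHGT_410m or eHGT_641m. All mice shared the strain, a viral vector and the reporter, and none of the mice analysed here was without a vector. The cells of a group are those its vectors labelled and the sort kept, and each vector went into a single tissue, so tissue and vector cannot be told apart. The 2 glial classes of VISp that were compared came from different vectors and different mice, so class and vector cannot be told apart there either. The 2 CBX mice are called A and B, the eHGT_381h mice C and D, the MGT_E160m mice E and F, and the 2 MBP_promoter mice G and H, each pair in the order in which its values are given. The age and sex of the mice are not given in the sources used here.

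FGF receptors are receptor tyrosine kinases that bind secreted FGFs together with heparan sulfate chains on the cell surface, and pass the signal through docking proteins to RAS and the ERK kinases. Sprouty proteins, encoded by the Spry genes, are induced by this pathway and dampen it, while Etv5 encodes a transcription factor of the ETS family that is a common transcriptional output of FGF signalling. In the brain, astrocytes are well known for Fgfr3, cells of the oligodendrocyte lineage for Fgfr2, and FGF2 acts on glial progenitors, astrocytes and neurons.

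The upstream sequences of Spry1 and Spry2 are shown because these paralogues, both Sprouty feedback inhibitors, had different profiles over the cell classes described below. Both are the 250 bases before the gene start, read 5′ to 3′ on the gene's strand, from the RefSeq promoter table (build GRCm38.p6). Spry1 lies on the forward strand at chr3:37639697-37639946 and Spry2 on the reverse strand at chr14:105896820-105897069. Capitals mark GGAA, the core that ETS factors bind, searched on both strands (GGAA and TTCC).
Spry1: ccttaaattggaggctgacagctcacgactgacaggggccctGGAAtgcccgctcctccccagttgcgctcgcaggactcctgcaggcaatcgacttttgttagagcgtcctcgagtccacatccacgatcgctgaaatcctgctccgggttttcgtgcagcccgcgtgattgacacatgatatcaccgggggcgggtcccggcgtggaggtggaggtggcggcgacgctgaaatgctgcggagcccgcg
Spry2: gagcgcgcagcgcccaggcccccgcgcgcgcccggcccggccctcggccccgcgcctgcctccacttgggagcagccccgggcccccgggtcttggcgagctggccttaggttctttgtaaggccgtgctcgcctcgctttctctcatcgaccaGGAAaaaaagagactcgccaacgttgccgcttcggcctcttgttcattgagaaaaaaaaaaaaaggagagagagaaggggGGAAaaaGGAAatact
The Spry1 window held 1 match, near its 5′ end. The Spry2 window held 3, at 96, 16 and 9 bases before the start. Such a match is common: 93.45% of 32851 promoter windows of this length held at least 1, with a median of 3. The longer form CGGAAG, also searched on both strands, was in neither window and in 13.59% of all windows. GC content was 62.4% in both.

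The classes were rebuilt by clustering with the FGF pathway genes left out, and named from marker genes. They held 969 astrocyte-like cells (47.5%), 946 oligodendrocyte-like cells (46.37%) and 75 neuron-like cells (3.676%), and 50 cells with markers of several classes stayed unnamed. All 12 astrocyte markers, all 12 oligodendrocyte markers and all 10 neuron markers were detected in most cells of the class that bears their name, in every tissue compared. Cells had 57873 to 1455022 reads, with a median of 434101.5. Levels are in CPM, reads of a gene per 1000000 reads of the cell, averaged over the cells of a class in each mouse, and the mouse was the replicate. Groups of 2 or more mice were compared between tissues, between classes of VISp and between vectors within VISp. The 2 vectors of MB/HB were not compared. The scale was log2(mean CPM + 1), which understates changes of low genes. A difference was called at a Benjamini-Hochberg adjusted p under 0.05 over all panel genes tested. Plate labels differed between the mice of some vectors, MBP_promoter and eHGT_390m among them. Beyond such labels nothing says whether the 2 or 3 mice of a vector were handled apart. The p-values measure the spread between these mice, which can include plate.

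Within VISp, Fgfr1, Fgfr3, Spry2, Spry4, Etv5 and Fgf2 were higher in astrocyte-like than in oligodendrocyte-like cells, Fgfr2 was lower, and Fgf1 and Spry1 did not pass the test. This made 7 of 9 members called, in a comparison that called 56.8% of the 2832 genes tested, so a call alone said little and the size of the differences carries the description.

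Fgfr3 gave the widest separation. In the 19 mice with astrocyte-like cells it ran from 360.98 to 1059 CPM with a median of 499.05 CPM, and in the 22 mice with oligodendrocyte-like cells from 0 to 10.1 CPM with a median of 2.05 CPM. The groups did not overlap, and 6 of the 22 oligodendrocyte values were 0. The log2 difference was 7.51 (SE 0.31, limma adjusted p = 6.92e-27). A read of Fgfr3 was found in 93.78% of 739 VISp astrocyte-like cells and in 3.511% of 940 oligodendrocyte-like cells (exact 95% interval 2.429 to 4.895%), at median depths of 431600 and 443000 reads. Fgfr1 followed the same direction, with 90.9 to 166.98 CPM in astrocyte-like cells (median 125.9) and 0.118 to 7.95 CPM in oligodendrocyte-like cells (median 1.81). Again the groups did not overlap, and the difference was 5.25 (SE 0.20, limma adjusted p = 4.09e-28).

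Fgfr2 went the other way. Its level was 437.15 to 979 CPM in oligodendrocyte-like cells (median 682.4) and 230.1 to 679.03 CPM in astrocyte-like cells (median 349.9). The ranges overlapped, and the log2 difference of astrocyte-like minus oligodendrocyte-like cells was −0.90 (SE 0.12, limma adjusted p = 9.49e-09). Set against the length of their annotated exons, the receptors in VISp astrocyte-like cells stood at 76.98 CPM per kb for Fgfr3, 38.2 for Fgfr2 and 12.9 for Fgfr1. In oligodendrocyte-like cells Fgfr2 stood at 68.5 CPM per kb, and Fgfr3 and Fgfr1 at 0.457 and 0.291. The gene model of Fgfr2 in GENCODE vM21 spans 2960900 bases of chromosome 7 and overlaps 30 other protein-coding genes, 14 of them on its own strand. How reads in overlapping genes were assigned is not given in the sources used here, and the part of such reads in the Fgfr2 values was not tested.

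**Figure D1:**
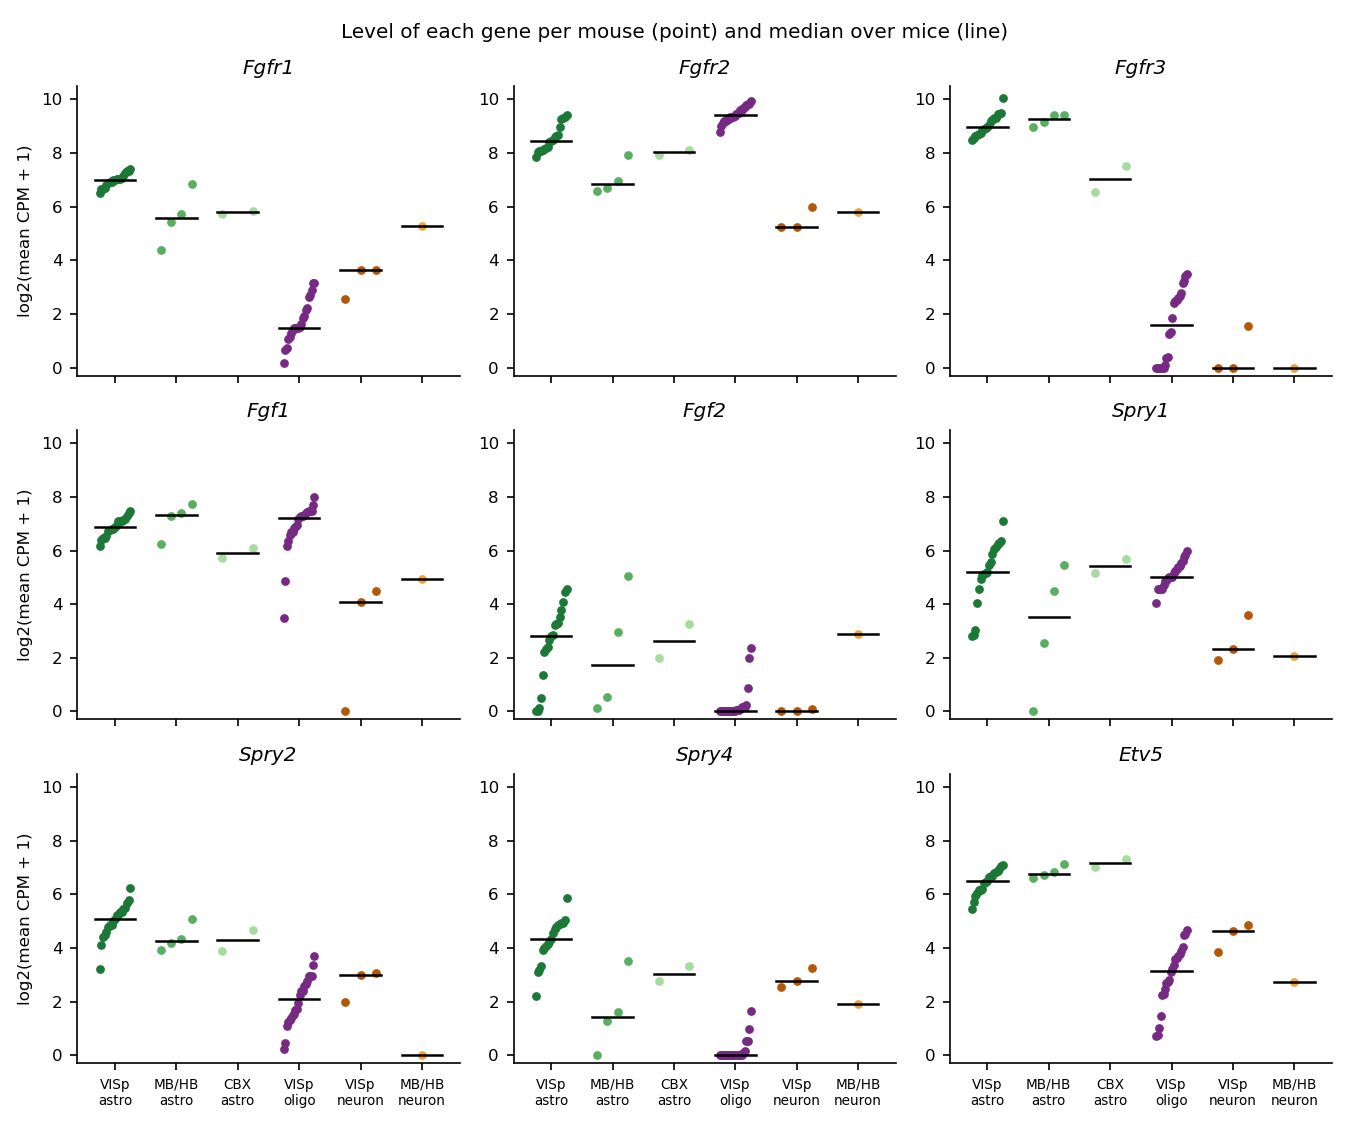
Level of each of the 9 genes as log2(mean CPM + 1), 1 point per mouse, with the median over mice as a line, in 6 groups of tissue and class (astro, astrocyte-like; oligo, oligodendrocyte-like). Fgfr3 and Fgfr1 separate astrocyte-like from oligodendrocyte-like cells without overlap, while Fgf1 and Spry1 sit at like heights in the 2 glial classes of VISp.

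Of the ligands, Fgf1 was present in both glial classes. VISp astrocyte-like cells held 71.7 to 175.5 CPM (median 117.7) and oligodendrocyte-like cells 10.1 to 251.5 CPM (median 148.9), and the oligodendrocyte range contained the whole astrocyte range. The log2 difference was 0.03 with a 95% interval of −0.52 to 0.59 (limma adjusted p = 0.934). Fgf1 reads were found in 56.29% of astrocyte-like and 59.57% of oligodendrocyte-like cells. Fgf2 was low throughout, with 0 to 22.8 CPM in astrocyte-like cells (median 6.08) and 0 to 4.21 CPM in oligodendrocyte-like cells (median 0.0219), where 11 of 22 mice were at 0. Its log2 difference of 2.21 (SE 0.33, limma adjusted p = 9.89e-08) fell to 0.65 with a pseudocount of 10 CPM. Both ligand genes overlap a protein-coding gene on the opposite strand in the annotation, Arhgap26 for Fgf1 and Nudt6 for Fgf2, and whether counting used strand is not given in the sources used here.

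Among the feedback genes, Spry2 was at 8.36 to 74.03 CPM in astrocyte-like cells (median 32.9) and at 0.178 to 11.9 CPM in oligodendrocyte-like cells (median 3.26). The highest oligodendrocyte mice reached into the lowest astrocyte values, and the log2 difference was 2.96 (SE 0.26, limma adjusted p = 2.03e-14). Spry1, whose upstream window is printed above beside that of Spry2, showed 5.99 to 137.2 CPM (median 35.3) against 15.4 to 61.4 CPM (median 31.5). Here the ranges lay on top of each other, with a difference of 0.06 and a 95% interval of −0.49 to 0.61 (limma adjusted p = 0.861). Spry4 was at 3.58 to 56.8 CPM (median 19.2) in astrocyte-like cells against 0 to 2.10 CPM in oligodendrocyte-like cells, with 16 of 22 oligodendrocyte mice at 0. It was read in 22.19% of astrocyte-like and 1.17% of oligodendrocyte-like cells, and differed by 4.09 (SE 0.22, limma adjusted p = 9.60e-22). Etv5 was at 42.7 to 134.8 CPM (median 88.4) against 0.626 to 24.6 CPM (median 7.88), with no overlap and a difference of 3.49 (SE 0.28, limma adjusted p = 8.39e-16).

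The wider feedback list includes the members Spry1, Spry2, Spry4 and Etv5, so it is no separate check on them. Of its 17 genes, all tested, 13 were higher in astrocyte-like cells, Spry2, Spry4 and Etv5 among them, and 2 were lower. The comparison called 56.8% of all genes. The median log2 difference of the list was 1.76 against 0.21 over all genes tested. Dusp6, an ERK phosphatase, was higher by 6.02, Etv4, another ETS factor of this group, by 4.68, and Spry4 by 4.09. Etv1, a further ETS factor, was lower by 3.84 and Flrt3, a membrane protein that binds FGF receptors, was lower by 2.13: these log2 differences of astrocyte-like minus oligodendrocyte-like cells were −3.84 and −2.13. The adaptor and ERK cascade list went the other way, with 1 of 16 genes higher and 10 lower (median −0.70). Its leading genes were the docking protein Gab1 at −2.69, the kinase ERK1 gene Mapk3 at −2.54 and the phosphatase Ptpn11 at −2.54, and Braf at 0.74 was the gene that was higher. Of 16 heparan sulfate and proteoglycan genes, 9 were higher and 3 lower, led by the glypicans Gpc5 (8.01) and Gpc6 (7.48) and the syndecan Sdc4 (5.73), with the sulfatase Sulf2 at −6.14.

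**Figure D2:**
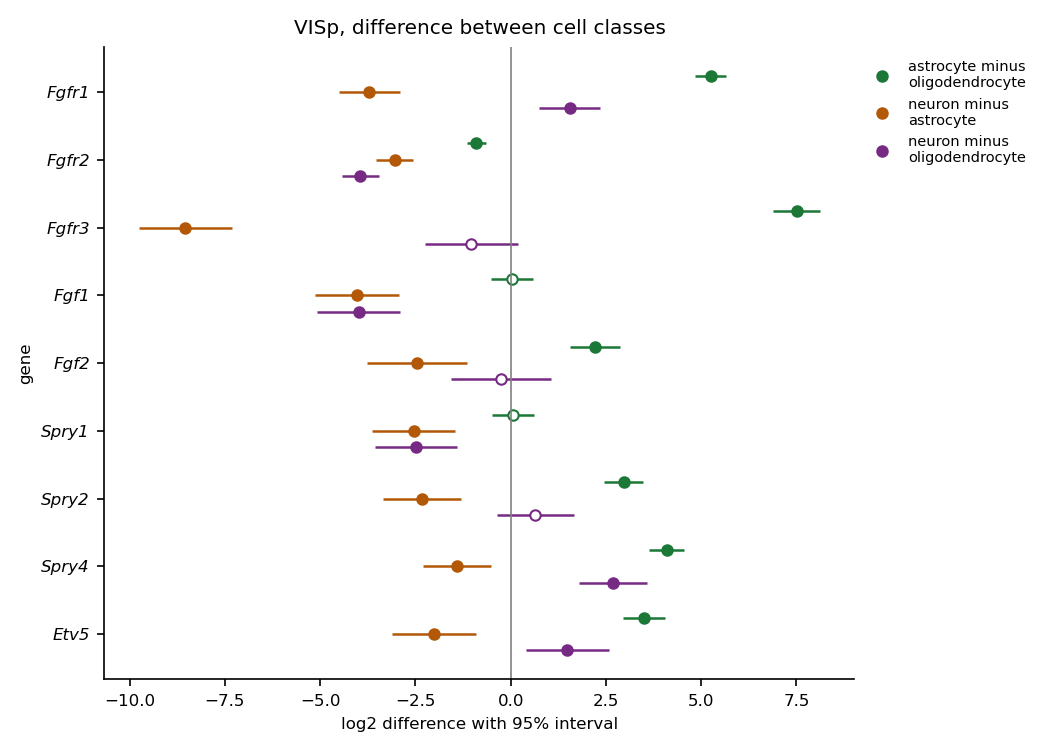
Log2 differences of the 9 genes between classes within VISp, with 95% intervals, filled where the limma adjusted p is under 0.05 and open where it is not. Fgf1 and Spry1 are near 0 between the glial classes, and all 9 genes are to the left of 0 for neuron-like minus astrocyte-like cells.

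Counted per cell, receptor sets differed between the glia. All 3 receptors had a read in 76.05% of the 739 VISp astrocyte-like cells, and exactly 1 in 89.68% of the 940 oligodendrocyte-like cells. In MB/HB astrocyte-like cells 42.95% held all 3 and 52.35% held 2. In CBX astrocyte-like cells 55.56% held all 3 and 12.35% held 1. Fgfr2 was the nearly constant member of the set, with a read in 99.33 to 100% of the cells of every group, and the share with an Fgfr1 read was 78.89% in VISp, 45.64% in MB/HB and 66.67% in CBX astrocyte-like cells. Thinned to 50000 reads per cell, the Fgfr1 shares were 70.64, 36.91 and 51.85%, in the same order.

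**Figure D3:**
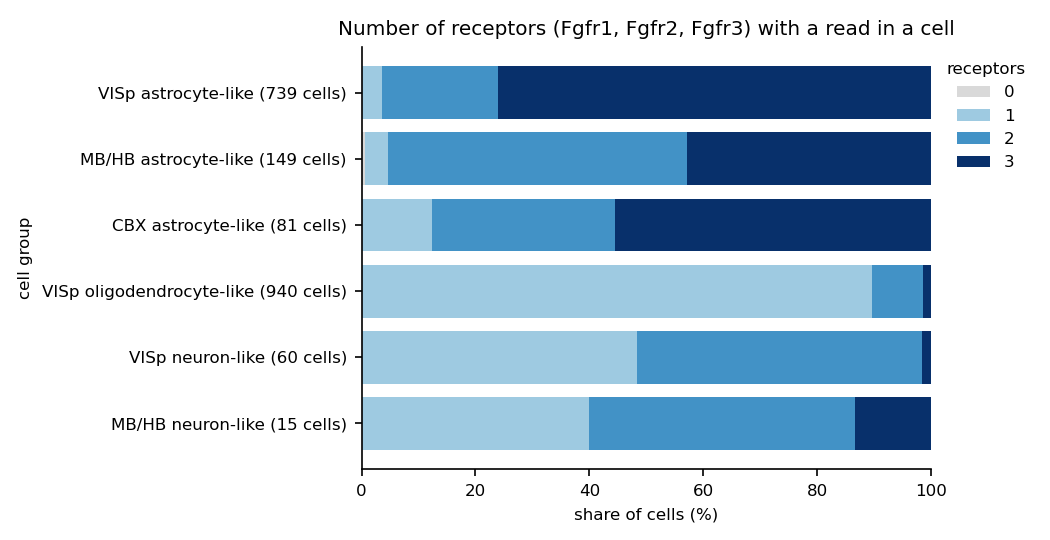
Share of cells (%) in which 0, 1, 2 or 3 of the receptors Fgfr1, Fgfr2 and Fgfr3 had a read, for each tissue and class with its number of cells. VISp astrocyte-like cells mostly had 3 receptors (76.05%) and VISp oligodendrocyte-like cells mostly 1 (89.68%).

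Among astrocyte-like cells, the receptor that was low differed by tissue: Fgfr3 was lowest in CBX, Fgfr2 was lowest in MB/HB, and Fgfr1 was lower in both than in VISp. Most cells of each tissue fell in clusters of their own: clusters 1 and 2 held 47.9 and 44.25% of those from VISp, cluster 4 held 92.62% of those from MB/HB, and cluster 6 held 96.3% of those from CBX. Cluster 6 had all 12 astrocyte markers detected. Its leading genes, Gdf10, Vim, Gria4, Gria1, Npy and Hopx among them, were outside the astrocyte marker list. The part of astrocyte type in the tissue differences was not tested. The CBX and VISp comparison called 3 of 9 members and 9.41% of 2732 genes, that of MB/HB and VISp 3 of 9 and 11.1%, and that of CBX and MB/HB 2 of 9 and 8.31%. These comparisons share mice, so their values are given side by side.

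Fgfr3 was at 183.6 and 92.2 CPM in CBX mice A and B. In MB/HB it was at 691.3 and 499.7 CPM in mice C and D and at 679.4 and 571.9 CPM in mice E and F, and in VISp at 360.98 to 1059 CPM. Both CBX values lay below every other astrocyte value, while the MB/HB values lay within the VISp range. The CBX minus VISp difference was −2.02 (SE 0.28, limma adjusted p = 2.69e-06), the CBX minus MB/HB difference −2.21 (SE 0.33, limma adjusted p = 1.05e-05), and the MB/HB minus VISp difference 0.19 with a 95% interval of −0.23 to 0.61. Both called differences passed in every alternative run, either CBX mouse left out included. Per kb of exon, as means over the mice of a group, Fgfr3 led Fgfr2 in VISp and MB/HB astrocyte-like cells. In CBX the means of mice A and B were Fgfr2 25.2, Fgfr3 19.3 and Fgfr1 5.49 CPM per kb. Single mice were not ranked in this way.

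Fgfr1 was at 56.4 and 51.9 CPM in CBX, at 41.6 and 20.01 CPM in MB/HB mice C and D and at 52.5 and 112.9 CPM in mice E and F. The value of mouse F fell inside the VISp range of 90.9 to 166.98 CPM, and the other 5 values outside VISp fell below it. Relative to VISp it was lower in MB/HB by −1.39 (SE 0.24, limma adjusted p = 8.79e-05) and in CBX by −1.20 (SE 0.32, limma adjusted p = 0.0133). With a mean of log2 values over cells the MB/HB difference was −2.53. The CBX call was lost without CBX mouse A (adjusted p = 0.133) or without B (adjusted p = 0.203), at differences of −1.26 and −1.14.

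Fgfr2 was at 94.6 to 123.2 CPM in MB/HB mice C, D and E and at 240.4 CPM in F, against 230.1 to 679.03 CPM in VISp and 275.6 and 244.65 CPM in CBX. Of the MB/HB mice, F alone, also the highest for Fgfr1, reached the VISp range. The MB/HB minus VISp difference was −1.50 (SE 0.25, limma adjusted p = 6.41e-05). CBX minus VISp was −0.52 (95% interval −1.22 to 0.18, limma adjusted p = 0.467). CBX minus MB/HB was 0.98 and did not pass (limma adjusted p = 0.150), but passed without MB/HB mouse F (1.28, adjusted p = 0.0407).

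**Figure D4:**
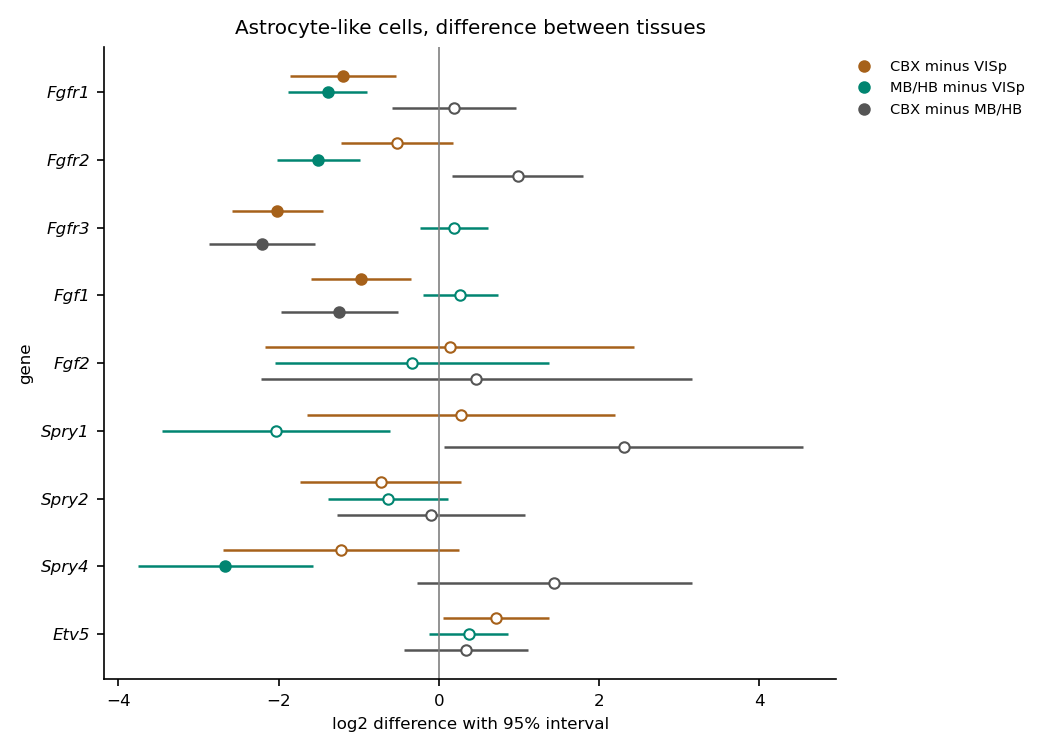
Log2 differences of the 9 genes between tissues in astrocyte-like cells, with 95% intervals, filled where the limma adjusted p is under 0.05 and open where it is not. Fgfr3 is low in CBX against both other tissues, Fgfr1 is low in both against VISp, and Fgfr2 and Spry4 are low in MB/HB against VISp.

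Fgf1 in CBX astrocyte-like cells was at 67.96 and 51.6 CPM, below all 19 VISp mice (71.7 to 175.5 CPM) and below the MB/HB mice, which were at 155.1 and 74.03 CPM with eHGT_381h and at 209.4 and 166.7 CPM with MGT_E160m. The gap to the lowest VISp and MB/HB mice was small. The differences were −0.97 for CBX minus VISp (SE 0.31, limma adjusted p = 0.0388) and −1.24 for CBX minus MB/HB (SE 0.36, limma adjusted p = 0.0254). Each was lost in 7 alternatives: both without CBX mouse A (adjusted p = 0.138 against VISp and 0.0904 against MB/HB), without B (0.488 and 0.306), with no intensity trend (0.0710 and 0.0520) and with a mean of log2 values over cells (−0.56, adjusted p = 0.516, and −0.44, adjusted p = 0.679). The VISp one was also lost on AB plates alone (adjusted p = 0.0685), and with plate prefix (0.0548) or depth (0.0524) as covariate, and the MB/HB one with summed reads (0.0622) and without MB/HB mouse E (0.0818) or F (0.0584). Fgf2 ran from 0.0823 to 31.9 CPM in MB/HB and was at 8.65 and 2.97 CPM in CBX, and none of its 3 tissue differences passed, with intervals over 3 log2 units wide.

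Spry4 was lower in MB/HB than in VISp astrocyte-like cells. The eHGT_381h mice had 10.6 and 1.41 CPM and the MGT_E160m mice 2.04 and 0 CPM, against 3.58 to 56.8 CPM in VISp and 5.85 and 8.93 CPM in CBX. A read was found in 6.711% of MB/HB cells (10 cells), against 22.19% of VISp and 24.69% of CBX cells. The MB/HB minus VISp difference was −2.67 (SE 0.53, limma adjusted p = 0.000596), and shrank to −1.18 with a pseudocount of 10 CPM and to −0.87 with a mean of log2 values over cells, both past the threshold. For CBX minus VISp it was −1.22 (95% interval −2.70 to 0.25, limma adjusted p = 0.380).

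Spry1 was the most uneven member in MB/HB. It was at 21.4 and 42.8 CPM in the eHGT_381h mice and at 4.83 and 0 CPM in the MGT_E160m mice, so the 2 vectors did not overlap, a difference that was not tested. The values came from few cells, 6 with a read (4.027% of MB/HB astrocyte-like cells), at a median of 229.7 CPM in these. The MB/HB minus VISp difference of −2.03 (SE 0.70) missed the threshold (limma adjusted p = 0.0563). It passed in 5 alternatives, among them without MB/HB mouse D (−2.81, adjusted p = 0.0115) and without C (−2.49, adjusted p = 0.0358). In CBX Spry1 was at 50.8 and 34.8 CPM, inside the VISp range.

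Spry2 was at 24.5 and 13.9 CPM in CBX and 14.2 to 32.6 CPM in MB/HB, all within the VISp range, and none of its tissue differences passed. Etv5 was at 159.1 and 127.9 CPM in CBX, at 104.7 and 97.9 CPM with eHGT_381h and at 139.6 and 112.3 CPM with MGT_E160m, and at 42.7 to 134.8 CPM in VISp. One CBX value stood above the VISp range and the other near its top, yet the difference of 0.71 (SE 0.32) did not pass (limma adjusted p = 0.203). Etv5 reads were found in 92.59% of CBX cells against 71.04% of VISp and 67.11% of MB/HB cells. With a mean of log2 values over cells, in which the share of cells with a read weighs more, the CBX minus VISp difference of Etv5 was 2.09 (adjusted p = 0.00557) and the CBX minus MB/HB difference 2.16 (adjusted p = 0.0129). In MB/HB minus VISp the 4 differences were −2.03, −0.63, −2.67 and 0.37 for Spry1, Spry2, Spry4 and Etv5. Spry4 alone of these was called, and the genes were not tested against each other.

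Elsewhere in the pathway, 4 of 16 heparan sulfate and proteoglycan genes were called in CBX minus VISp, where 9.41% of all genes were called. In MB/HB minus VISp 5 were called (11.1% of all genes), and in CBX minus MB/HB 3 (8.31%). The sulfatase Sulf1, which trims heparan sulfate, was higher outside VISp by 5.92 in CBX and 5.19 in MB/HB, and the syndecan Sdc3 by 2.81 and 3.87. Gpc5 was lower in CBX by −7.24 against VISp and by −7.41 against MB/HB, at 1.83 to 48.6 CPM in CBX against 937 to 3242 CPM in VISp. Of the intracellular FGF homologous factors, which bind sodium channels and are not secreted, Fgf13 was lower in CBX (−5.32) and MB/HB (−4.37) than in VISp. In the feedback list 0 of 17 genes were called in CBX minus VISp, and in MB/HB minus VISp Flrt2 was higher (4.15) and Spry4 and Spred1 (−0.73) lower. In the adaptor and ERK cascade list 0 of 16 genes were called in CBX minus VISp. With 9.41% of all genes called there, a count of 0 in lists of 16 or 17 genes says little.

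Markers of other classes moved with tissue in the astrocyte-like cells. The summed level of the 12 oligodendrocyte markers was 171.2 to 1311 CPM in VISp, 839 to 5607 CPM in MB/HB and 1935 to 2226 CPM in CBX, with 5, 1 and 3 of the 12 under 1 CPM. The 6 endothelial markers summed to 0.776 to 23.1 CPM in VISp and 7.23 to 1244 CPM in MB/HB, and the 6 mural markers to 30.1 to 123.8 and 43.4 to 2265 CPM. Cells carrying RNA of another class were 2.571% of VISp, 6.711% of MB/HB and 4.938% of CBX astrocyte-like cells, and the member calls between tissues were the same in number without them. All MB/HB and CBX mice were on plates with the AB prefix, as were 16 of the 19 VISp mice.

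In VISp oligodendrocyte-like cells, Fgf1 was the member that differed by vector, and it was low with MBP_promoter, a vector named for the promoter of the myelin gene Mbp. MBP_promoter mice G and H were at 28.2 and 10.1 CPM. The other 20 mice, given 14 vectors, were at 71.2 to 251.5 CPM with a median of 153.6 CPM, so the groups did not overlap. The share of all genes without overlap between the same mice was not counted. The highest was the eHGT_405m mouse at 251.5 CPM. Mice of 1 vector spread widely, from 94.3 to 177.9 CPM over the 3 eHGT_410m mice and from 103.6 to 207.1 CPM over the 2 eHGT_641m mice.

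Over the 12 mice of the 5 vectors with at least 2 mice (MBP_promoter, eHGT_395h, eHGT_409h, eHGT_410m and eHGT_641m), 1 of the 7 members that passed the filter on low values was called in the F-test, in a comparison that called 0.0959% of 2085 genes. This was Fgf1 (F = 18.3, limma adjusted p = 0.00942), and Fgf2 and Spry4 were under the filter. MBP_promoter against the mean of the other 4 vectors again called 1 of 7 members, against 0.432% of genes, with Fgf1 lower by −3.04 (SE 0.36, limma adjusted p = 0.000276). The Fgf1 F-test did not pass with a pseudocount of 10 CPM (adjusted p = 0.0577) or with the class called in each cell (0.0557). Nor did it pass with no intensity trend (0.110), no filter on low values (0.166) or a mean of log2 values over cells (0.371). It also did not pass in cluster 0 alone (0.457) or without MBP_promoter mouse H. With at least 20 cells per mouse, mouse H with its 18 cells was left out. MBP_promoter then had 1 mouse and left the F-test, whose adjusted p of 0.991 compared the other 4 vectors alone. The 1-against-others difference passed with either MBP_promoter mouse left out, in fits with 1 mouse of that vector. On AB plates alone that difference was −3.16 (adjusted p = 0.00107).

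The share of cells showed the same order. Fgf1 had a read in 6 of 29 cells (20.7%) and 2 of 18 cells (11.1%) of the MBP_promoter mice, and in 42.6 to 81.8% of the cells of the other 20 mice (median 60.2%). Thinned to 50000 reads, the shares were 17.2 and 5.56% against 36.96 to 78.7%. Clusters were not evenly shared: 42 of the 47 MBP_promoter cells lay in oligodendrocyte-like cluster 0 (89.4%), against 47.2% of the cells of the other 20 mice. Over all cells of a cluster, Fgf1 was read in 50.54% of cells in cluster 0, 72.67% in cluster 3, 47.27% in cluster 5 and 86.67% in cluster 9, the smallest, which had Enpp6 and Klk6 among its leading genes.

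Within cluster 0 alone, an alternative chosen after seeing the data, the MBP_promoter mice were at 28.5 and 10.7 CPM and 16 other mice at 58.8 to 184.06 CPM (median 114.05), still without overlap. Here too the share of all genes without overlap was not counted. The fit there kept 7 mice of 3 vectors, gave −2.70 and did not pass (limma adjusted p = 0.131). Mice G and H were also the ones whose sorts held most of the neuron-like cells of VISp, 45 of 60. The summed neuron markers in their oligodendrocyte-like cells were 227.6 and 149.8 CPM, against 100.9 to 335.9 CPM (median 151.5) in the other mice. Single markers varied between G and H. Snap25 was at 76.7 and 18.4 CPM, inside the others' range. Syt1 was at 1.37 and 30.3 CPM, and the value of H was the highest of all these mice. The part of neuronal RNA in their Fgf1 values was not tested.

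**Figure D5:**
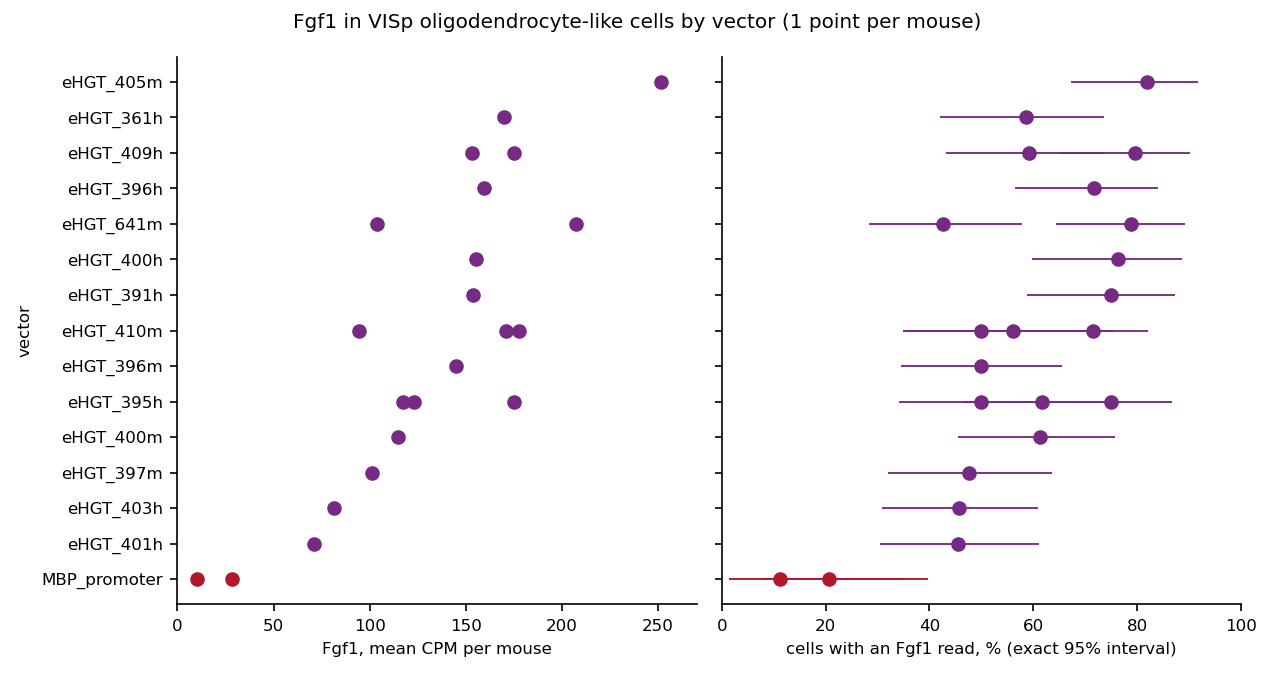
Fgf1 in VISp oligodendrocyte-like cells for each of 15 vectors, 1 point per mouse: mean CPM on the left, and on the right the share of cells with an Fgf1 read (%) with its exact 95% interval. The 2 MBP_promoter mice, in red, have the 2 lowest values in both panels, at 10.1 and 28.2 CPM and 11.1 and 20.7% of cells.

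The other members did not pass in oligodendrocyte-like cells. For MBP_promoter against the others, Fgfr2 differed by −0.27 (95% interval −0.68 to 0.15), Spry1 by −0.05 (−0.92 to 0.81), Spry2 by −0.86 (−2.76 to 1.04) and Etv5 by −1.48 (−3.34 to 0.38). Etv5 was lowest, at 0.626 CPM, in MBP_promoter mouse H. Of the wider pathway, Fgf1 was the 1 gene called in either oligodendrocyte comparison, among 4 ligands, 4 receptors, 16 adaptor and cascade genes, 11 feedback genes, 13 heparan sulfate and proteoglycan genes and 4 homologous factors tested.

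In VISp astrocyte-like cells no member was called among vectors. Over 14 mice of 7 vectors, 0 of 9 members passed the limma F-test, which called 0% of 2458 genes, while 5.004% of them had an unadjusted p under 0.05. The lowest p of a member was 0.0385 for Fgf2 (adjusted p = 0.938). On the log2(mean CPM + 1) scale the spread between VISp mice was widest for Fgf2, 0 to 22.8 CPM, followed by Spry1, 5.99 to 137.2 CPM, and narrowest for Fgfr1, where the highest mouse was under 2 times the lowest.

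Neuron-like cells had less of all 9 genes than astrocyte-like cells of VISp. They came from 3 VISp mice with at least 5 such cells: MBP_promoter mice G (19 cells) and H (26 cells) and an eHGT_374m mouse (7 cells), all of them with reads of a GABAergic marker in every cell. All 9 members were called lower, in a comparison that called 42.8% of 2832 genes. Against oligodendrocyte-like cells 6 of 9 were called, 3 higher and 3 lower, where 41.3% of genes were called.

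Of the receptors, Fgfr1 was at 11.5, 11.4 and 4.87 CPM in these 3 mice, under every astrocyte mouse and above the oligodendrocyte median. It was lower than in astrocyte-like cells by −3.71 (SE 0.40, limma adjusted p = 3.90e-11) and higher than in oligodendrocyte-like cells by 1.54 (SE 0.39, limma adjusted p = 0.00104). Fgfr2 was at 62.7, 37.2 and 36.8 CPM, below all glial values of VISp, with differences of −3.05 and −3.94 (SE 0.24 in both). It had a read in all 60 neuron-like cells, and in 86.67% after thinning. Fgfr3 was at 1.93, 0 and 0 CPM, from 1 of 60 cells, and differed from astrocyte-like cells by −8.54 (SE 0.61, limma adjusted p = 7.76e-17).

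Fgf1 was at 21.5, 16.1 and 0 CPM, with the 0 in the eHGT_374m mouse. It was lower than in astrocyte-like cells by −4.02 and than in oligodendrocyte-like cells by −3.99 (SE 0.55 and 0.54), and without the eHGT_374m mouse by −2.59 and −2.56, both still called. In the MBP_promoter mice Fgf1 therefore stood at similar levels in both sorted classes, 21.5 and 16.1 CPM in neuron-like and 28.2 and 10.1 CPM in oligodendrocyte-like cells. Fgf2 was at 0, 0.0724 and 0 CPM, from 1 cell.

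The feedback genes were nearer to the glial levels. Spry4 was at 8.51, 5.86 and 4.87 CPM, within the astrocyte range and above every oligodendrocyte mouse, with differences of −1.41 (SE 0.45, limma adjusted p = 0.00830) and 2.68 (SE 0.44, limma adjusted p = 1.34e-06). The share of cells with a Spry4 read was higher in neuron-like (43.33%) than in astrocyte-like cells (22.19%), at fewer CPM per positive cell (median 11.3 against 42.1). With a mean of log2 values over cells the astrocyte difference turned to 0.20 (adjusted p = 0.411), and the call was also lost with a pseudocount of 0.1 CPM (adjusted p = 0.104), with at least 20 cells per mouse (0.178) and without the eHGT_374m mouse (0.0602). Etv5 was at 28.1, 23.7 and 13.3 CPM, below every astrocyte mouse, with differences of −2.01 (SE 0.55, limma adjusted p = 0.00209) and 1.48 (SE 0.54, limma adjusted p = 0.0234).

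The Etv5 calls were lost with at least 20 cells per mouse (adjusted p = 0.127 and 0.206), the astrocyte one with a mean of log2 values (−0.65, adjusted p = 0.126), and the oligodendrocyte one on AB plates alone (0.0619) and without MBP_promoter mouse G (0.138) or H (0.101). Spry2 was at 6.96, 7.48 and 3.00 CPM and Spry1 at 4.02, 2.77 and 10.97 CPM. Spry1 was lower than in either glial class (−2.54 and −2.48, SE 0.54 in both), calls that were lost with a mean of log2 values (−0.39 and −0.61, adjusted p = 0.441 and 0.215). Spry2 was lower than in astrocyte-like cells by −2.32 (SE 0.51, limma adjusted p = 0.000162) and did not pass against oligodendrocyte-like cells (0.64, 95% interval −0.37 to 1.66). With at least 20 cells per mouse, which left 1 neuron mouse whose spread was taken from the other groups, the astrocyte calls of Spry2 (adjusted p = 0.0623) and Fgf2 (0.0764) were lost as well.

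MB/HB neuron-like cells numbered 15, of which 12 came from eHGT_381h mouse D, the single MB/HB mouse with at least 5, and have no test. In that mouse Fgfr1 was at 38.3 CPM, above the 3 VISp neuron mice and above the 20.01 CPM of its own astrocyte-like cells. Fgfr2 was at 54.6 CPM with a read in all 12 cells, and Fgfr3 was at 0. Etv5 at 5.69 CPM and Spry4 at 2.80 CPM each came from 4 cells. Fgf1 at 29.4 CPM rested on 2 cells, and Fgf2 at 6.47 CPM and Spry1 at 3.24 CPM on 1 cell each. Spry2 was read in 0 of the 15 MB/HB neuron-like cells, which allows a share of up to 20%. The summed astrocyte markers of these cells were 1847 CPM, against 115.2 to 210.9 CPM in the VISp neuron mice, and their part in these values was not tested.

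The wider FGF lists, which include the members, went both ways in neuron-like cells. Of 11 ligand genes tested, 5 were higher than in astrocyte-like cells and 4 lower, Fgf1 and Fgf2 among the lower ones. The comparison called 42.8% of all genes. The leading higher ligand was Fgf9, a secreted ligand known from neurons (6.64, SE 0.37). It was at 78.4 to 190.3 CPM in VISp neurons against at most 1.12 CPM in astrocyte-like cells. Fgf22 was higher by 2.67 and Fgf18 by 1.38. Of the 4 homologous factors, Fgf12 (3.02) and Fgf11 (2.68) were higher. The feedback list had 4 higher and 7 lower of 17, and the lower ones include the members Spry1, Spry2, Spry4 and Etv5. Its median, members included, was −1.14 against −0.04 over all genes tested. Its lowest were Etv4 (−4.71), Dusp6 (−3.89) and Spry1.

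Put in order of median level over the 6 groups, the members gave different rankings. For Fgfr3 it ran from MB/HB, VISp and CBX astrocyte-like cells to VISp oligodendrocyte-like cells and neurons, and the MB/HB and VISp astrocyte values overlapped. For Fgfr2 it ran from VISp oligodendrocyte-like cells through VISp, CBX and MB/HB astrocyte-like cells to neurons, with overlap between the VISp classes and between VISp and CBX astrocyte-like cells, while both CBX values lay above all 4 MB/HB values. For Etv5 the order was CBX, MB/HB and VISp astrocyte-like cells, then VISp neurons, VISp oligodendrocyte-like and MB/HB neurons. For Fgf1, MB/HB astrocyte-like, VISp oligodendrocyte-like and VISp astrocyte-like cells overlapped at the top, followed by CBX astrocyte-like cells and neurons.

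Genes outside the pathway lists with the most similar levels were ranked by Pearson's r over the 51 mouse-by-class values and 2892 genes, a description in which points share mice and classes. Fgfr3 was nearest to the astrocyte genes Gja1 (0.97), Ntsr2 (0.96) and Aqp4 (0.96), and Fgfr2 to Trp53bp2 (0.88), Car2 (0.87) and Olfml1 (0.87). Fgfr1 was nearest to Cbr3 (0.96), Ttyh3 (0.95) and Lsamp (0.94). Fgf1 had looser neighbours, Dusp11 (0.80), Myo6 (0.78) and As3mt (0.73), as had Fgf2 with Lair1 (0.73), Dlg4 (0.72) and Nat8f6 (0.72). Among the feedback genes, Spry4 was nearest to Dclk1 (0.91), Nek6 (0.89) and Ttyh3 (0.89), Etv5 to Tmem47 (0.90), Sat1 (0.90) and Adgrl3 (0.90), and Spry2 to Mmd2 (0.88), Sfxn5 (0.87) and F630040K05Rik (0.87). Spry1 had the loosest, Fbxo2 (0.61), Nkd1 (0.59) and Slc25a1 (0.58).

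Within a class, members were compared with each other over mice. In VISp astrocyte-like cells none of 36 pairs passed after adjustment (two-sided permutation test over 19 mice). The closest was Spry1 with Spry4 (r = 0.68, p = 0.0014, adjusted p = 0.0504; rho = 0.57, p = 0.0125, adjusted p = 0.135), with r = 0.67 without the 2 mice farthest from the median of Spry1 and 0.68 on the 16 mice of AB plates. In oligodendrocyte-like cells no Pearson correlation of 21 pairs passed over 22 mice (lowest adjusted p = 0.189), while 5 rank correlations did, at an adjusted p of 0.0463 each: Fgf1 with Spry2 (rho = 0.59), Fgfr2 with Fgf1 (0.57), Fgfr2 with Fgfr3 (0.56), Fgf1 with Etv5 (0.55) and Fgfr2 with Spry1 (0.54). The permutations took no account of vector, and the 2 MBP_promoter mice had the lowest Fgf1 values. The part of vector in these correlations was not tested.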

How the data were processed

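The authors deposited 1 table with a line per cell. No label states its unit; the values of each cell add up to 1000000, as CPM do, and all 9484843 positive values were whole multiples of 1 read within 0.001 reads, so depth was recovered. The deposited columns whose sum over cells is too large for a CPM column were recorded as signal; they hold the same CPM. The submitters' processing notes list STAR and mm10; version, annotation and strand setting are not given in the sources used here. Levels of single genes and tests used 4884 gene columns: 185 listed genes and 4699 drawn at random; the other 27361 columns were not used. The members and lists were chosen with earlier results of these data known.

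Cells were clustered on the 2000 most variable panel genes without the FGF lists (30 components, 15 neighbours, Leiden resolution 1) with scikit-learn 1.9.0 and leidenalg 0.10.2, and named from marker lists. No doublet caller was run; a cluster with over 50% of another list's markers detected stayed unnamed. No 2 of the 2040 cells had the same panel values. CPM was averaged per mouse and class (at least 10 cells, 5 for neuron-like), and log2(mean CPM + 1) was tested with limma 3.58.1 in R 4.3.3 (empirical Bayes, intensity trend, two-sided) for genes at a mean of at least 1 CPM in 2 mouse values, with Benjamini-Hochberg adjustment. The 3 tissues shared a model (25 mice), as did the 3 classes of VISp (44 values of 41 mice); the 3 mice with values in 2 classes are a pairing that was left to an alternative. The test was also run on simulated normal values with 1 spread per gene for all groups. That setting lacks the unequal spreads of the real groups, and no conclusion is drawn from it. Intervals on shares are exact (Clopper-Pearson) at 95% and cover counting error only, as does the limit of 3 cells that a count of 0 allows. Correlations used 100000 permutations (scipy 1.17.1 under Python 3.11.15). Pathway genes named are the 9 members and at most the 3 largest called changes in each direction of each pathway list. Other genes named are the 3 nearest genes of each member, genes that overlap a member, and some markers and leading genes of clusters. Alternatives changed the pseudocount, filter, class calls, cells per mouse, averaging, covariates, plates and mice.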

Additional observations from a re-analysis of the deposited data

How the results depend on the processing

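Of the 32 called differences of members, 20 kept their call in all alternatives, and over 1644 recomputed member results 1595 kept direction and side of the threshold, 38 lost and 10 gained the call, and 1 turned: Spry4 in neuron-like minus astrocyte-like cells, 0.20 (adjusted p = 0.411) with a mean of log2 values over cells. A further 41 changed sign while past the threshold in neither fit, by at most 0.89, and 14 of them were Fgf2. The number of members called moved by over 1.5 times in 17 alternatives. In CBX minus VISp it was 1 (Fgfr3) without either CBX mouse, where 4.65 and 4.97% of genes were called in place of 9.41%. In CBX minus MB/HB it was 1 with summed reads and with no intensity trend, and 1 to 2 with a mouse left out, being 1 without either CBX mouse or MB/HB mouse E. Among vectors in oligodendrocyte-like cells it was 0 with a pseudocount of 10 CPM, no filter, the class called in each cell, at least 20 cells, a mean of log2 values, no intensity trend, or cluster 0 alone, and 0 to 1 with a mouse left out; for MBP_promoter against the others it was 0 with cluster 0 alone. In neuron-like minus astrocyte-like cells it was 5 with at least 20 cells per mouse. In each of these the cause was not tested, apart from the smaller number of mice where mice or cells were left out. With at least 20 cells, the F-test over vectors in oligodendrocyte-like cells no longer held MBP_promoter.

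Counts over all genes moved more than those of members: a mean of log2 values called 36.9% of 1585 genes in CBX minus VISp and 40.6% in CBX minus MB/HB (8.31% otherwise, 3.99 and 4.01% without CBX mouse A or B), and MBP_promoter against the others called 9 genes, 69 when set against all other vectors, 3 to 65 with a mouse left out and 2 with a mean of log2 values. The F-test over vectors called 0 to 9 genes in oligodendrocyte-like cells, and in astrocyte-like cells 15 with no filter and 2 without 1 of the eHGT_374m mice, in place of 0. With at least 20 cells per mouse the neuron-like comparisons called 25.4 and 26.7% of genes in place of 42.8 and 41.3%. With the mouse as a block for the 3 mice paired across classes, 7, 9 and 6 members were called in the 3 class comparisons, as without it, and the block changed no member's call. Fgf2 and Spry4 rest on few cells in several groups, and the part of depth in this was not tested.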
